A study of Mus musculus with 8 samples.

Results

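Elastic fiber and microfibril genes were described in whole mammary tumors in which Mmp14 had been targeted, and in control tumors. The set named 10 genes, chosen by symbol: Eln, Fbln1, Fbln2, Fbln5, Efemp1, Efemp2, Mfap2, Mfap4, Mfap5 and Emilin1. An array row carried 9 of these symbols, 1 row per gene, among 22180 genes with a row of their own. Efemp2, or fibulin-4, which binds lysyl oxidase, was not analysed here.

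An elastic fiber has a core of crosslinked elastin laid on a mantle of fibrillin microfibrils. Fibulins and EMILIN-1 bind elastin and microfibrils, the microfibril-associated proteins bind fibrillin, and lysyl oxidases crosslink the elastin monomers. In the mammary gland these proteins are made largely by fibroblasts and by the mural cells of vessels, so that in a tumor they belong mostly to the stroma.

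The tumors were MMTV-PyMT mammary carcinomas, in which the mouse mammary tumor virus promoter drives the polyoma middle T antigen in mammary epithelium. The 4 conditional knockout tumors (cKO) had the genotype MMTV-PyMT+/MMTV-Cre+/Mmp14(f/f), with Cre under the same promoter, which acts chiefly in mammary epithelium. The 4 tumors called wild type (WT) were MMTV-PyMT+/Mmp14(f/f) and came from littermates without Cre. All mice had floxed Mmp14 alleles, were congenic FVB/NJ and were aged 3 to 4 months, and the tumors came from inguinal and thoracic glands. The groups thus differ in Cre as well as in Mmp14, which encodes a membrane-anchored metalloproteinase of the cell surface. Which cells of these tumors made the RNA described here, and in which of them Cre acted, was not tested. The labels call the tumors biological replicates and do not say whether each came from a separate mouse, so p-values measure the spread between these samples.

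Each tumor gave 1 array, read as log2 signal per row. The median signal of an array lay between 3.64 and 3.71. The targeted transcript followed the labels, as Mmp14 lay between 7.44 and 7.98 in cKO tumors and between 8.86 and 9.31 in WT tumors (limma difference −1.40, SE 0.13, adjusted p 0.0444). The ranges did not overlap, and the difference was −1.48 to −1.30 with 1 tumor left out. The adjusted p was above 0.05 without cKO 2 (0.0582), without cKO 4 (0.211), without any 1 WT tumor (0.0954 to 0.152), with arrays 1 to 4 and 5 to 8 as blocks (0.0708) and with the replicate block (0.353). Epithelial content followed the tissue label: the mean log2 level of 10 luminal epithelial markers was 9.22 to 9.65 in cKO tumors and 9.38 to 9.76 in WT tumors. By fibroblast markers cKO 3 was the lowest tumor, and cKO 2 also lay below every WT tumor. The score of 16 fibroblast markers, meaning their mean log2 deviation from the average of the 8 tumors, was −1.43 in cKO 3, against −0.55 in cKO 2, 0.09 in cKO 1 and 0.57 in cKO 4. The WT tumors lay between 0.05 and 0.51 on this score. An endothelial score, formed alike from 10 markers, was −0.49 in cKO 3 and −0.40 in cKO 2. It was 0.11 in cKO 1, 0.22 in cKO 4 and −0.14 to 0.30 in WT tumors. The tumor WT 2 stood highest in skeletal muscle markers, with a score of 1.49 against 0.56 in WT 4 and −0.60 and −0.64 in the other WT tumors. The cKO tumors ran from −0.62 to 0.42 on the muscle score.

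The comparison asked whether RNA of elastic fiber components differed between tumors with and without targeted Mmp14. All 9 measured genes had a lower mean in cKO tumors, by 0.04 to 1.12 on the log2 scale, with a median difference of −0.24, against a median of 0.02 over all genes. None of the 9 passed limma at an adjusted p of 0.05 over all 23521 rows tested, where 0.0085% of rows and 0.00902% of genes passed. Their adjusted p ran from 0.305 to 0.983. At an unadjusted p below 0.05 there was 1 of the 9, Mfap4, which was lower in cKO tumors, against 4.2% of all genes lower, 5.7% higher and 9.9% in either direction at that level. A difference of at least 0.5 on the log2 scale was found in 3 of the 9 (Fbln5, Mfap4 and Mfap5) and in 4.55% of all genes. Of all genes, 43.3% had a lower mean in cKO tumors. The 9 genes share tumors, so their common sign is not 9 separate observations: cKO 3 was the lowest of all 8 tumors in 7 of them, where it was the lowest in 13.6% of all genes. The highest tumor was cKO 4 in 3 of the 9 (16.8% of all genes) and WT 2 in 2 (9.63% of all genes). The SD was larger among cKO tumors in 7 of the 9, as in 58.8% of all genes. Without cKO 3, 6 of the 9 were lower and the median difference was −0.19. These were whole tumors, in which fewer cells of a type and less RNA per cell cannot be told apart.

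**Figure D1:**
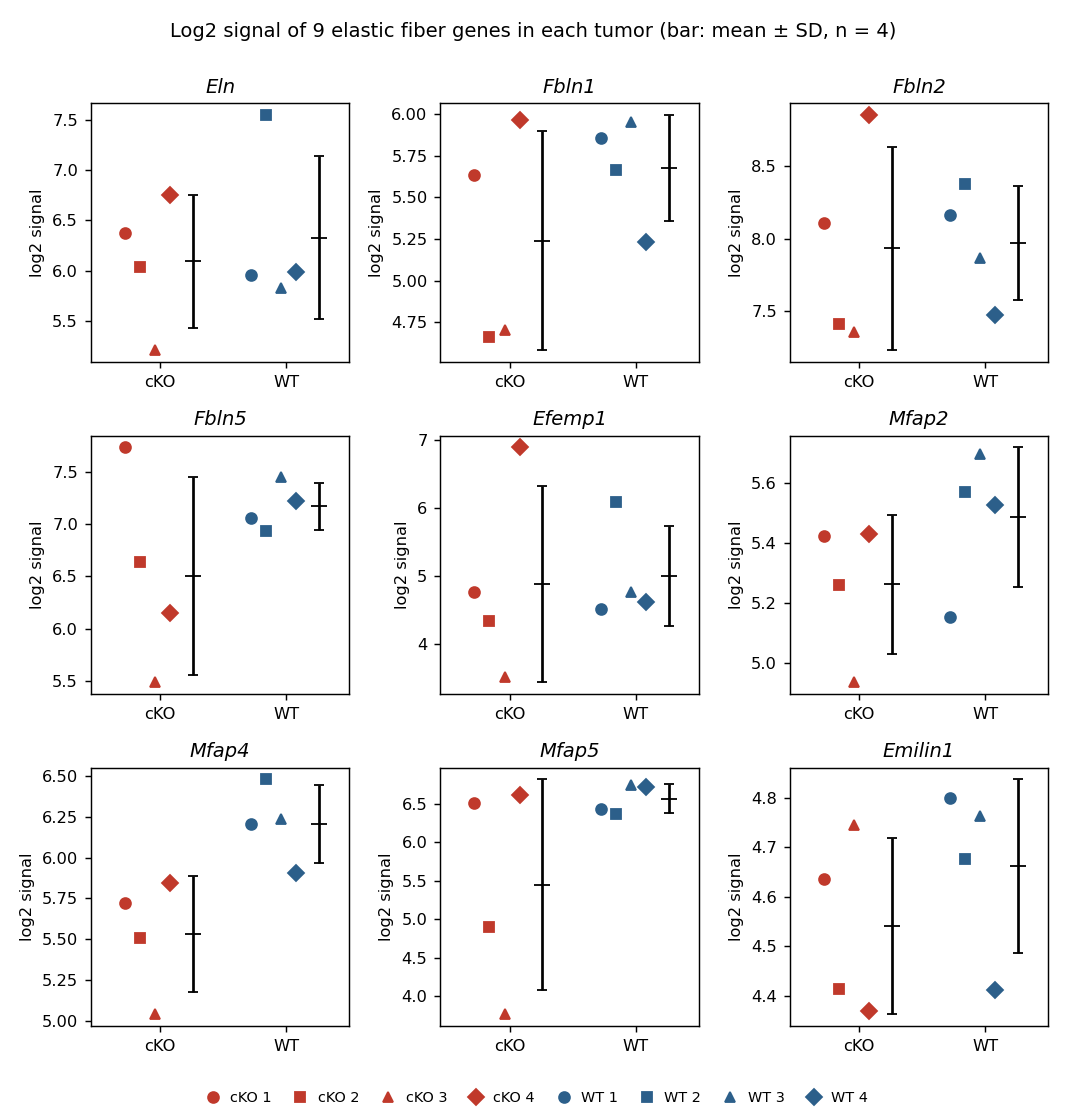
Log2 signal (vertical axes) of the 9 measured genes in each of the 4 cKO and 4 WT tumors, with the mean and SD of each group in black; axes differ between panels. The groups are apart in Mfap4, where cKO tumors reach 5.85 and WT tumors begin at 5.90, and overlap in the other 8 genes.

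Among the microfibril-associated proteins were the 2 largest differences, in Mfap5 and Mfap4. Mfap4, a fibrinogen-related glycoprotein that binds elastin and fibrillin, had log2 signals of 5.72, 5.51, 5.04 and 5.85 in cKO tumors 1 to 4, against 6.21, 6.48, 6.24 and 5.90 in WT tumors 1 to 4. Every cKO tumor lay below every WT tumor, with the nearest pair at 5.85 and 5.90. Of all genes, 1.75% showed cKO tumors wholly below WT tumors. The cKO tumors averaged 5.53 ± 0.36 and the WT tumors 6.21 ± 0.24 (SD, n = 4 each). The difference was −0.68 (SE 0.19), or 62.5% of the WT signal (95% confidence interval 46.7% to 83.5%). Limma gave an unadjusted p of 0.00519 and an adjusted p of 0.305. An exact two-sided permutation test gave 0.0286, unadjusted, which is the lowest p available with 4 tumors a group. Any gene without overlap has this p, so it adds nothing to the separation described above. The difference was −0.51 without cKO 3 and −0.78 without cKO 4. By the array numbers in the labels, it was −0.73 in arrays 1 to 4 and −0.63 in arrays 5 to 8, each with 2 tumors per group.

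Mfap5, also called MAGP-2, is a small microfibril protein that binds fibrillins and can also bind Notch ligands and integrins. It had log2 signals of 6.51, 4.90, 3.76 and 6.61 in cKO tumors 1 to 4, against 6.43, 6.37, 6.74 and 6.71 in WT tumors 1 to 4. The WT tumors were close together, cKO 1 and cKO 4 lay among them, and cKO 2 and cKO 3 lay far below. The spread was accordingly unequal, with 5.45 ± 1.37 in cKO tumors and 6.56 ± 0.19 in WT tumors (SD, n = 4 each), an SD 7.29 times as large in cKO tumors. The difference was −1.12 (SE 0.57), the largest among the 9 genes, with a limma adjusted p of 0.571 and an exact permutation p of 0.229. Without cKO 3 it was −0.56, and without cKO 4 it was −1.51. Arrays 1 to 4 gave −0.70 and arrays 5 to 8 gave −1.54.

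Mfap2, or MAGP-1, which shares the fibrillin-binding domain of MAGP-2, spread much less. Its log2 signals were 5.42, 5.26, 4.94 and 5.43 in cKO tumors 1 to 4, against 5.15, 5.57, 5.69 and 5.53 in WT tumors 1 to 4. The groups overlapped through WT 1, which lay below all cKO tumors but cKO 3. The difference was −0.22 (SE 0.15, limma adjusted p 0.667). It was −0.11 without cKO 3 and −0.33 without WT 1, and arrays 1 to 4 gave −0.02 where arrays 5 to 8 gave −0.43.

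Elastin itself, encoded by Eln and the bulk of the fiber core, was not shifted in one direction. Its log2 signals were 6.37, 6.03, 5.21 and 6.75 in cKO tumors 1 to 4, against 5.95, 7.55, 5.83 and 5.99 in WT tumors 1 to 4. Apart from WT 2, the WT tumors lay within the range of the cKO tumors, and 3 of 4 cKO tumors lay above the 3 lower WT tumors. The difference was −0.24 (SE 0.43, limma adjusted p 0.893), with a 95% confidence interval from −1.21 to 0.74. It turned to 0.17 without WT 2 and to 0.06 without cKO 3. WT 2 was also the tumor with the highest skeletal muscle score, and the part of that tissue in its elastin signal was not tested.

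Emilin1, a glycoprotein at the boundary of elastin and microfibrils that also binds integrins, was dim and nearly level. It had log2 signals of 4.64, 4.41, 4.74 and 4.37 in cKO tumors 1 to 4, against 4.80, 4.68, 4.76 and 4.41 in WT tumors 1 to 4. The ranges were almost the same in the 2 groups, and cKO 3, the lowest tumor for most of the genes, was the highest cKO tumor here. The difference was −0.12 (SE 0.12, limma adjusted p 0.787), with a 95% confidence interval from −0.39 to 0.15. It was −0.20 without WT 4, −0.19 without cKO 3, −0.08 without either cKO 2 or WT 1 and −0.06 without cKO 4. Emilin1 and Efemp1 were the 2 of the 9 genes with a mean signal below 5 over the 8 arrays, and differences in dim rows can be understated.

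**Figure D2:**
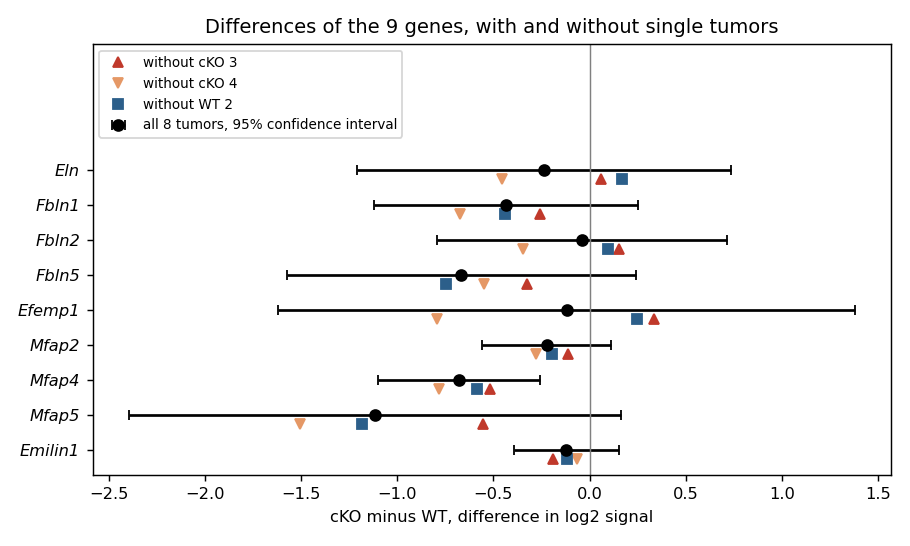
Difference in log2 signal, cKO minus WT (horizontal axis), for each of the 9 genes, with all 8 tumors (black, 95% confidence interval) and without cKO 3, cKO 4 or WT 2 (colored markers). Mfap4 stays between −0.78 and −0.51 in these fits, while Eln, Fbln2 and Efemp1 lie on both sides of 0.

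The fibulins are calcium-binding glycoproteins that join elastin, microfibrils and basement membranes. The short fibulins Fbln5, Efemp1 (fibulin-3) and Efemp2 act in elastic fiber assembly or bind its enzymes, and the larger Fbln1 and Fbln2 also bind fibronectin, laminins and proteoglycans. Fbln5, which recruits tropoelastin to microfibrils and cell surfaces, had log2 signals of 7.74, 6.64, 5.48 and 6.15 in cKO tumors 1 to 4, against 7.06, 6.93, 7.45 and 7.23 in WT tumors 1 to 4. The tumor cKO 1 was the highest of all 8, and the other 3 cKO tumors lay below every WT tumor. The groups averaged 6.50 ± 0.95 in cKO tumors and 7.17 ± 0.22 in WT tumors (SD, n = 4 each), a difference of −0.67 (SE 0.40) with a limma adjusted p of 0.636. Leaving out cKO 1 gave −1.08, and leaving out cKO 3 gave −0.33. The sign differed between arrays 1 to 4, at 0.19, and arrays 5 to 8, at −1.52.

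Fbln1 had log2 signals of 5.63, 4.66, 4.70 and 5.96 in cKO tumors 1 to 4, against 5.85, 5.66, 5.95 and 5.23 in WT tumors 1 to 4. Here cKO 2 and cKO 3 were low, cKO 4 was the highest of all tumors, and the difference was −0.44 (SE 0.30, limma adjusted p 0.680). It was −0.24 without cKO 2 and −0.26 without cKO 3, against −0.68 without cKO 4. Fbln2 had 8.11, 7.41, 7.36 and 8.85 in cKO tumors 1 to 4, against 8.16, 8.38, 7.87 and 7.47 in WT tumors 1 to 4. It again had cKO 4 highest and cKO 3 and cKO 2 lowest, with WT 4 close to them, and the means lay 0.04 apart (difference −0.04, SE 0.33, 95% confidence interval −0.79 to 0.71). That difference was 0.15 without cKO 3 and −0.35 without cKO 4. Efemp1 had 4.76, 4.34, 3.51 and 6.90 in cKO tumors 1 to 4, against 4.51, 6.10, 4.77 and 4.61 in WT tumors 1 to 4. It had the widest range among cKO tumors of any of the 9 genes, 3.39 on the log2 scale, and a difference of −0.12 (SE 0.66, limma adjusted p 0.970) that was 0.34 without cKO 3, 0.25 without WT 2 and −0.79 without cKO 4.

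The promoters of Fbln1, Fbln2 and Efemp1, 3 genes with cKO 4 as the highest tumor and cKO 2 and cKO 3 as the lowest, are shown beside that of Fbln5, where cKO 1 was highest and cKO 3 and cKO 4 lowest. Each is the RefSeq window on GRCm38.p6 from 250 bases before to 50 after an annotated start, the one nearest to the 5′ end of the gene where the table holds several. Fbln1 lies at chr15:85205699-85205998 on the plus strand, Fbln2 at chr6:91212514-91212813 on the plus strand, Efemp1 at chr11:28852955-28853254 on the plus strand and Fbln5 at chr12:101819070-101819369 on the minus strand. Sequences run 5′ to 3′, and capitals mark the motifs searched on both strands, which did not overlap in these windows.
Fbln1: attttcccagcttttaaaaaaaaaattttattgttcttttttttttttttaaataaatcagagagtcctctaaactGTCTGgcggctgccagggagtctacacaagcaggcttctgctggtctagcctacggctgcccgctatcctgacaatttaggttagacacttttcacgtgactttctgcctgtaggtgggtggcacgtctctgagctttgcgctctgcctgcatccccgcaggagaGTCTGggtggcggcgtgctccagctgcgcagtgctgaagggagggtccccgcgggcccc
Fbln2: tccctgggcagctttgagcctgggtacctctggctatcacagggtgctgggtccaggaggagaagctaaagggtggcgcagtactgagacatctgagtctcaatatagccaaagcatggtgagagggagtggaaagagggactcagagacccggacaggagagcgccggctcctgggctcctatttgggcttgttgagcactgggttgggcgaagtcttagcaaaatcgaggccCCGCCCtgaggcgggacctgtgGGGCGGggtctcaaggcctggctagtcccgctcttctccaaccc
Efemp1: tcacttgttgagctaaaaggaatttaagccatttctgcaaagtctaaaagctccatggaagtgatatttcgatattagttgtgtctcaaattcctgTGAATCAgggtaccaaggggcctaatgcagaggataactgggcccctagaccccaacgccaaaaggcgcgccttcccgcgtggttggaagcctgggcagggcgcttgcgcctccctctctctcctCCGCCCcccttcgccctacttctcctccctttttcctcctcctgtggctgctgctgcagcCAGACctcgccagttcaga
Fbln5: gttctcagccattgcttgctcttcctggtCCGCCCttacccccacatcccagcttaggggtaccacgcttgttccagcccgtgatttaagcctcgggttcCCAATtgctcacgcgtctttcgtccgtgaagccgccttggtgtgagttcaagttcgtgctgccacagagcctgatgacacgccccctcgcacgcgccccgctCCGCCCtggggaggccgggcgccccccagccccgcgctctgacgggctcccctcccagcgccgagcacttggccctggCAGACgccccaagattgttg
The motifs were the GC box GGGCGG, the TATA box TATAAA, the CCAAT box CCAAT, the AP-1 site TGANTCA, the TEAD site GGAATG and the SMAD box CAGAC. The GC box was in 35.7% of the 32851 mouse promoter windows and in those of Fbln2, Efemp1 and Fbln5. The SMAD box was in 49.6% of windows and in those of Fbln1, Efemp1 and Fbln5. The AP-1 letters were in 7.81% of windows and, among these 4, in Efemp1 alone, and the CCAAT box was in 37.4% and in Fbln5 alone. None of the 4 held the TATA letters, which 13.6% of windows hold, or the TEAD letters, which 14.7% hold. No motif was in all 3 promoters of Fbln1, Fbln2 and Efemp1. The RefSeq table also held windows of Efemp2, Mfap2 and Emilin1, and the genes without an entry were Eln, Mfap4 and Mfap5.

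Markers of stromal and immune cells are given beside these genes. Correlations with the genes were computed for the fibroblast score alone. Of the 16 fibroblast markers 15 had a lower mean in cKO tumors, with a median difference of −0.81, against 43.3% of all genes lower. None of the 16 passed limma over all rows, and 6 were lower at an unadjusted p below 0.05, against 4.2% of all genes. Their mean log2 level was 4.96 to 6.96 in cKO tumors and 6.44 to 6.89 in WT tumors. Without cKO 3, 11 were lower and the median was −0.24. Pericyte and smooth muscle markers were lower in 11 of 12, with a median difference of −0.35 and levels of 5.42 to 5.99 in cKO tumors and 5.97 to 6.25 in WT tumors. Without cKO 3, 8 of them were lower and the median was −0.14. Endothelial markers were lower in 10 of 10, with a median of −0.26. Their scores were −0.49 to 0.22 in cKO tumors and −0.14 to 0.30 in WT tumors. Leaving out cKO 3 left 8 lower (median −0.18). No marker of these 2 lists passed limma over all rows. At an unadjusted p below 0.05, 4 pericyte and smooth muscle markers and 1 endothelial marker were lower, against 4.2% of all genes. Macrophage markers were higher in 9 of 10 (median 0.40), and none passed over all rows. At an unadjusted p below 0.05, 7 macrophage markers were higher, against 5.7% of all genes. Every cKO tumor lay above every WT tumor in 4 of the 10, and in 3.76% of all genes. With cKO 3 left out, 1 of the 10 was lower and the median was 0.45. The part of any of these cell types in the differences above was not tested.

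**Figure D3:**
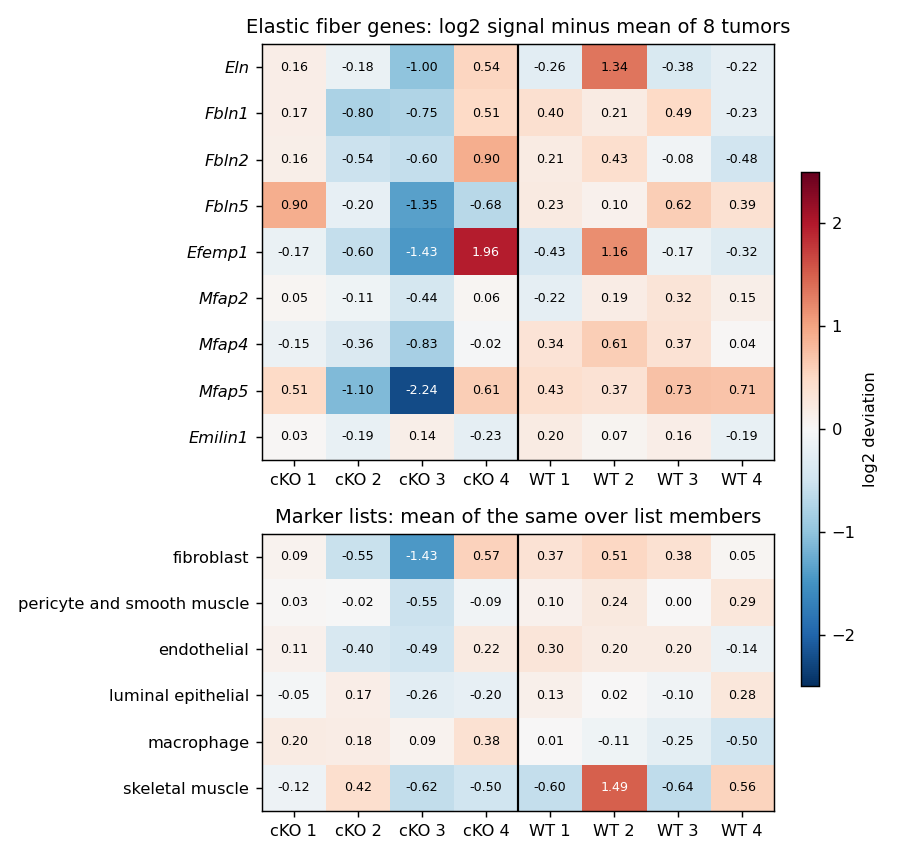
Log2 signal of each of the 9 genes minus its mean over the 8 tumors (upper panel), and the mean of the same quantity over 6 marker lists (lower panel), with cKO tumors left of the line and WT tumors right of it. The blue column of cKO 3 runs through 8 of the 9 genes and through the fibroblast score of −1.43, and WT 2 is highest in Eln, Mfap4 and the skeletal muscle score.

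The correlations with the fibroblast score describe a pattern already seen in these tumors, so their p-values are no independent evidence of it. Fbln1, Fbln2 and Efemp1 had high coefficients both by value and by rank. Pearson's r was 0.890 for Fbln1 (exact permutation p 0.00293, adjusted over the 9 relations 0.0132), 0.766 for Fbln2 (p 0.0189, adjusted 0.0425) and 0.758 for Efemp1 (p 0.0320, adjusted 0.0480). Spearman's rho was 0.905 for Fbln1 (exact permutation p 0.00456, adjusted 0.0137) and 0.929 for both Fbln2 and Efemp1 (p 0.00223, adjusted 0.0100). Without cKO 2 and cKO 3, the 2 tumors farthest from the median score, r was 0.755, 0.795 and 0.754 for the 3 genes, with exact permutation p of 0.0861, 0.05 and 0.0903 (adjusted 0.203 each). After the group means were taken off, r was 0.862, 0.871 and 0.850.

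The microfibril genes had higher coefficients by value than by rank, as did Eln and Fbln5. Mfap5 had the highest r, 0.945 (exact permutation p 0.0131, adjusted 0.0393), with a rho of 0.50 (p 0.216, adjusted 0.278). This relation rests on cKO 2 and cKO 3, since r was −0.30 without them. Mfap4 had an r of 0.891 (exact permutation p 0.00248, adjusted 0.0132) and a rho of 0.714 (p 0.0576, adjusted 0.130), with an r of 0.52 without the same 2 tumors (p 0.303). With the group means taken off it was 0.921 (exact permutation p 0.00174, adjusted 0.0156). This was the only one of the 9 relations under 0.05 in that form after adjustment. Tumors were exchanged only within groups for this p, and 0.00174 is the lowest that such exchanges can give. Mfap2 had an r of 0.749 (exact permutation p 0.0305, adjusted 0.0480) and a rho of 0.619 (p 0.115, adjusted 0.207), and its r was 0.02 without the 2 tumors.

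Eln, Fbln5 and Emilin1 did not pass after adjustment. Eln had an r of 0.689 (exact permutation p 0.0722, adjusted 0.0928) with a rho of 0.571 (p 0.151, adjusted 0.227), and 0.52 without the 2 tumors. Fbln5 had an r of 0.609 (exact permutation p 0.110, adjusted 0.124) with a rho of 0.143 (p 0.752, adjusted 0.846), and an r of −0.74 without them. Emilin1 had an r of −0.08 (exact permutation p 0.886, adjusted 0.886) with a rho of −0.07 (p 0.882, adjusted 0.882), and 0.09 without them. Arrays 1 to 4 and arrays 5 to 8 held 4 tumors each, too few for these relations.

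**Figure D4:**
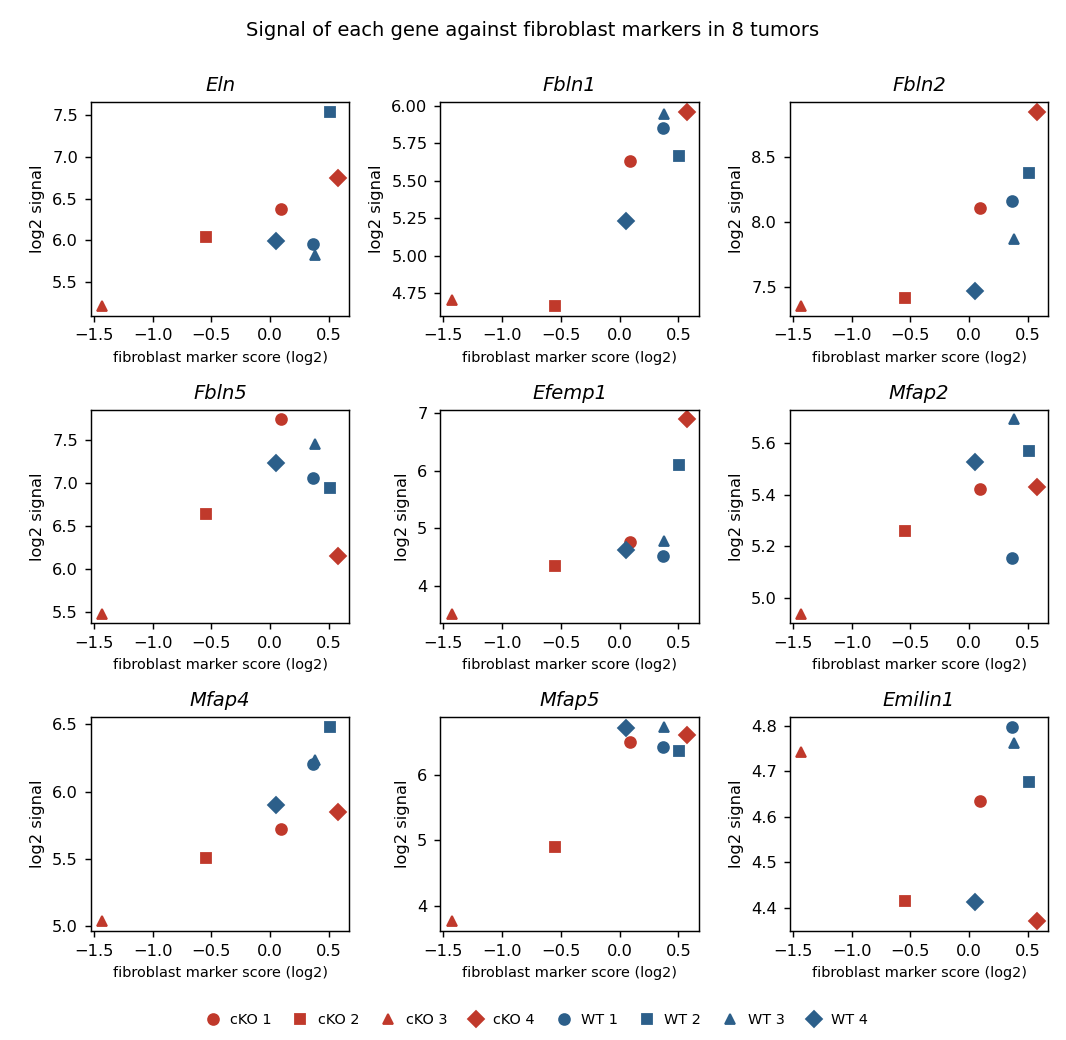
Log2 signal of each of the 9 genes (vertical axes) against the fibroblast marker score (horizontal axes, mean log2 deviation of 16 markers) in the 8 tumors; colors give the group and shapes the replicate. For Mfap5 the 2 tumors on the left, cKO 3 and cKO 2, stand apart from the other 6, among which r is −0.30; for Fbln2 it is 0.795 among the same 6.

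Genes that act with these proteins were taken from lists of scaffold and assembly partners, proteases and receptors. Of 24 scaffold and assembly partners 22 had a row, with 14 lower and 8 higher in cKO tumors and a median difference of −0.19. None passed limma over all rows. At an unadjusted p below 0.05, 6 were lower and 0 higher, against 4.2% and 5.7% of all genes. The elastin crosslinking enzyme Lox had log2 signals of 6.66, 6.21, 4.26 and 7.13 in cKO tumors 1 to 4, against 7.41, 7.28, 7.65 and 7.81 in WT tumors 1 to 4. Every cKO tumor lay below every WT tumor, as in 1.75% of all genes, and cKO 3 lay far below the rest. The difference was −1.47 (SE 0.53, limma adjusted p 0.437), and −0.87 without cKO 3. The proteoglycan Bgn, or biglycan, which binds tropoelastin, was also without overlap, with 10.78, 9.61, 8.86 and 10.72 in cKO tumors 1 to 4, against 10.96, 11.04, 11.15 and 11.02 in WT tumors 1 to 4. Its difference was −1.05 (SE 0.38, limma adjusted p 0.446), and −0.67 without cKO 3.

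Fbn2, the fibrillin of developing microfibrils, showed a smaller and steadier difference. It had 3.21, 3.16, 3.37 and 3.90 in cKO tumors 1 to 4, against 3.93, 3.83, 4.16 and 4.01 in WT tumors 1 to 4. The groups overlapped only through cKO 4 and WT 2, and all values were near the array median, where detection is unknown. The difference was −0.57 (SE 0.16, limma adjusted p 0.319), −0.56 without cKO 3 and between −0.74 and −0.49 over all fits that left out 1 tumor. Hmcn1, or hemicentin-1, a large relative of the fibulins, stood at −0.41 (SE 0.16, limma adjusted p 0.463). Fbn1, the main fibrillin of adult tissue, and Loxl2 were not analysed here.

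**Figure D5:**
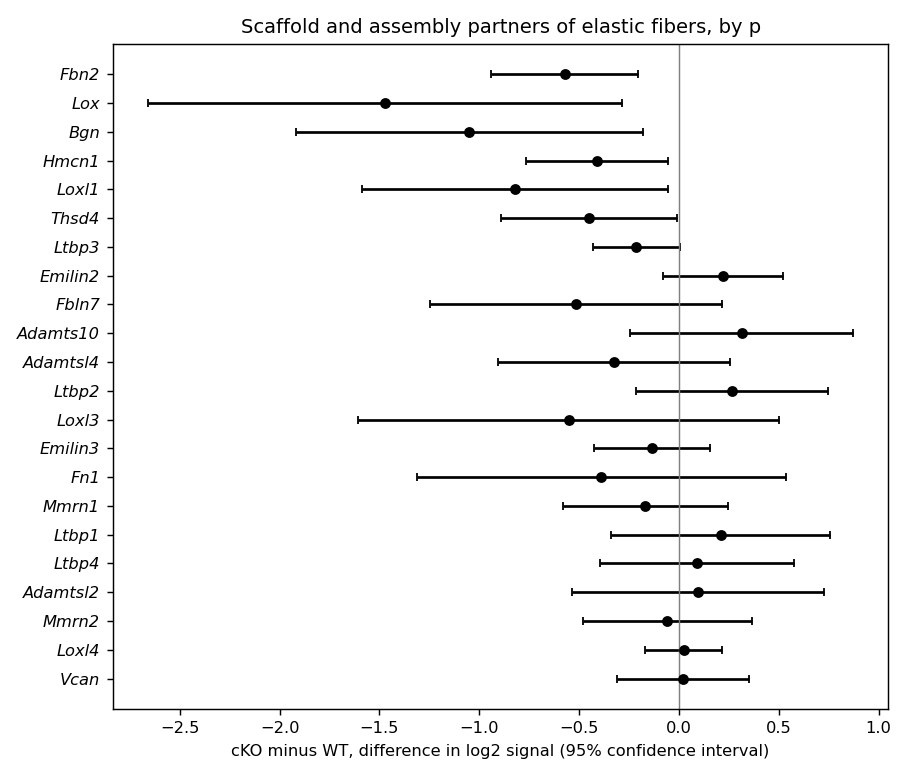
Difference in log2 signal, cKO minus WT (horizontal axis, 95% confidence interval), for the 22 scaffold and assembly partners with a row, in order of unadjusted p from the top. Lox and Bgn lie farthest from 0, at −1.47 and −1.05, and none passed over all rows.

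The proteases that cut elastin or fibulins did not lean one way. Of 11 with a row 6 were lower and 5 higher in cKO tumors, with a median difference of −0.02. None passed limma over all rows, and 2 were lower at an unadjusted p below 0.05, against 4.2% of all genes. Without cKO 3, 4 were lower and the median was 0.09. Mmp2, a gelatinase that can degrade elastin and whose proenzyme is a substrate of the Mmp14 protein, stood at −1.24 (SE 0.43, limma adjusted p 0.422) and at −0.82 without cKO 3. The lysosomal cathepsin Ctsl stood at −0.47 (SE 0.17, adjusted p 0.437) and the serine protease Htra1 at −0.45 (SE 0.21, adjusted p 0.528), while the pancreatic-type elastase Cela1 stood at 0.17 (SE 0.09, adjusted p 0.592). Among 10 integrin subunits that bind elastic fiber proteins 8 were lower and 2 higher, with a median of −0.10. None of these subunits passed limma over all rows, and 1 was lower at an unadjusted p below 0.05, against 4.2% of all genes. Their median was −0.05 without cKO 3, with 8 lower. The αv subunit Itgav stood at −0.39 (SE 0.14, adjusted p 0.454), Itga8 at −0.53 (SE 0.25, adjusted p 0.544), Itgb3 at −0.33 (SE 0.21, adjusted p 0.661) and Itgb6 at 0.19 (SE 0.11, adjusted p 0.634).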

How the data were processed

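Total RNA of 8 tumors was labelled from 400 ng each and hybridised to Affymetrix arrays, 1 per tumor. The deposited values were taken to be log2 signals. RMA, a method of background correction, quantile normalization and probe summary, and limma were used by the authors, per the submitters' processing notes, which name no version. Detection calls were not used here. Precision is limited by having 8 arrays.

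The table has 41345 rows. The platform annotation gives a single symbol to 23521, several to 1814 and no name here to 16010; symbols of 23328 rows were updated by gene identifier from RefSeq (GRCm38.p6). The row with the highest mean stood for a gene. A model of group alone was fitted to all 23521 rows (limma 3.58.1, R 4.3.3, moderated two-sided test of cKO minus WT), with Benjamini-Hochberg adjustment over all rows and a threshold of 0.05. Single values were tested by exact permutation of the 8 tumors, and correlations by exact permutation of pairings (scipy 1.17.1). Where group means were taken off, pairings were exchanged only within groups. The fit was tested on simulated data, drawn as independent normal values with the same SD in both groups. That test does not cover tumors that deviate in many genes together, or groups of unequal SD. The members and the lists were chosen with earlier results of these data known. Named genes are all members, Mmp14 and up to 4 genes of each related list with the smallest p. Alternatives were other scalings, a filter on rows with a mean below 5, another variance model, the mean of a gene's rows, 2 blocks and leaving out each tumor.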

Additional observations from a re-analysis of the deposited data

Results flagged for a closer look

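Of the 18 sets of 4 tumors examined (9 genes in 2 groups), 2 held a tumor far from the other 3, where chance gives about 1 in 20. Both were WT 2. In Eln, WT 2 had a log2 signal of 7.55 and the other WT tumors 5.83 to 5.99, so that its gap to the nearest was 0.907 of the whole range of the group. In Efemp1, WT 2 had 6.10 and the others 4.51 to 4.77, a gap of 0.835 of the range. Beside these, the skeletal muscle score of WT 2 was 1.49 and its fibroblast score 0.51, each the highest of the WT tumors, and their part in the 2 signals was not tested.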

How the results depend on the processing

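No member passed limma's adjusted p of 0.05 under any of the 15 alternative fits, in which their adjusted p ran from 0.218 to 0.992. Mfap4 was the member at an unadjusted p below 0.05 in each fit, and with 1 tumor left out the number of such members was 1 to 3: Fbln5 and Mfap5 joined without cKO 1, Fbln1 and Mfap5 without cKO 4, and Mfap2 without WT 1. The median difference of the members was −0.55 to −0.19 with 1 tumor left out, and −0.44 over the 7 members left by the filter on dim rows. Of 151 single-gene values 13 changed sign. With 1 tumor left out Eln ran from −0.46 to 0.17, Fbln2 from −0.35 to 0.15 and Efemp1 from −0.79 to 0.34. Arrays 5 to 8 alone gave 0.072 for Eln, 0.43 for Fbln2 and 0.51 for Efemp1, and arrays 1 to 4 alone gave 0.19 for Fbln5; the cause was not tested. The relation to fibroblast markers changed sign without cKO 2 and cKO 3 for Fbln5 (−0.74), Mfap5 (−0.30) and Emilin1 (0.087). Over all rows, 2 passed in the main setting, 0 to 3 with 1 tumor left out, 1 with arrays 1 to 4 and 5 to 8 as blocks and 0 with the replicate block, where 1830 genes had an unadjusted p below 0.05. Deviations of same-numbered tumors correlated at −0.02, −0.20, 0.30 and −0.25, and those of differently numbered tumors at −0.34 to 0.37. These values cannot decide whether the replicate numbers pair the tumors, since paired tumors need not deviate alike. The filter on dim rows left 1331 genes at an unadjusted p below 0.05, against 2196, from fewer genes tested.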

Other observations

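Loxl3, a lysyl oxidase relative among the assembly partners, was singled out after its values were seen. It had log2 signals of 6.27, 8.31, 6.18 and 6.01 in cKO tumors 1 to 4, against 7.15, 7.74, 7.08 and 6.99 in WT tumors 1 to 4. The tumor cKO 2 was the highest of all 8 while the other 3 cKO tumors lay below every WT tumor, and its gap to the next cKO tumor was 0.883 of the range of the cKO group.

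Latent TGF-beta binding proteins, relatives of the fibrillins that attach to microfibrils, were also singled out after their values were seen, and the 4 genes differed among themselves. Ltbp1 was highest in cKO 3, at 7.56, with the other cKO tumors at 6.52 to 7.20 and WT tumors at 6.49 to 7.26. Ltbp4 was likewise highest in cKO 3, at 6.05, with the other cKO tumors at 4.89 to 5.81 and WT tumors at 5.38 to 5.57. Their differences were 0.21 and 0.09, and neither passed limma over all rows (adjusted p 0.822 and 0.924). Ltbp2 was highest in cKO 4, at 7.98, with cKO 3 at 7.55 above every WT tumor (difference 0.27, limma adjusted p 0.723). Ltbp3 lay at 8.57 to 8.71 in cKO tumors, below all WT tumors at 8.77 to 9.11 (difference −0.21, limma adjusted p 0.530). Of all genes, 1.75% showed cKO tumors wholly below WT tumors.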
